A study of Mus musculus with 4 samples.

Results

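Adventitial-like fibroblasts were picked out of a sort of mouse lung mesenchyme from embryonic day E16.5 by the genes they carried, and made up 65 of its 3085 cells (2.107%, exact binomial 95% interval 1.63 to 2.678%, which covers counting error only). A cell was a member when at least 3 of Agtr2, Penk, Dpep1, Dcn and Lum had a count and their summed level was at least 500 CPM (counts scaled to the same total in every cell). It also had to show fewer than 4 of 6 genes of another mesenchymal group (Hhip, Ednrb, Fgf18, Wif1, Agt and Tgfbi) and no count of the mesothelial gene Upk3b or the epithelial gene Epcam. The members were thus chosen on their measured values, so everything said of the genes just named, and every difference between members and other cells of the sort, is a description without a test.

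Single-cell RNA sequencing was done on C57BL/6 mice. The sorted sample came from 1 E16.5 lung carrying αSMA-GFP, Tbx4-Cre and Rosa26-tdTomato, from which cells positive for the alpha smooth muscle actin reporter and for the Tbx4 lineage were purified by flow cytometry. Tbx4-Cre acts in the mesenchyme of the developing lung and leaves tdTomato on in the descendants of cells that used it. The other 3 samples were live cells from E17.5 wild-type lungs, whose relation to each other and to the sorted lung is not stated. No group received a treatment. Age, sort, reporter alleles and library all differ between the E16.5 sample and the E17.5 lungs and cannot be told apart.

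Adventitial fibroblasts lie in the sleeves of loose connective tissue around large airways and vessels, where they build a matrix rich in fibrillar collagen and elastic fibres. They are known in many organs by genes such as Pi16, Cd34, Dpt and Clec3b, and are distinguished from the matrix fibroblasts of the gas-exchange tissue, from contractile smooth muscle and myofibroblasts, and from pericytes on capillaries. Of the genes used here, Agtr2 encodes the type 2 angiotensin II receptor, Penk the precursor of the enkephalin opioid peptides, Dpep1 a membrane dipeptidase that converts leukotrienes, and Dcn and Lum the small leucine-rich proteoglycans decorin and lumican, which bind collagen fibrils.

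The 4 samples held 10564 cells with a median of 7201 to 12007 unique molecular identifiers (UMIs, counted RNA molecules) per cell, and the sort shared 7 to 13 cell barcodes with each lung. In the sort the members had a median of 9378 UMIs and the other 3020 cells 12081. Median mitochondrial shares were 2.446 and 2.452%. Doublet scoring called 31 of 3085 cells and none of the members. Levels are means of the per-cell CPM, differences are log2 ratios of such means after adding 10 CPM to each, and a gene was counted as higher or lower when this ratio was at least 2-fold and the higher level at least 20 CPM. Cells of 1 lung share their source and are not replicates, so no p-value or replicate error is given within the sort.

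Members were set beside the whole rest of the sort and beside 3 groups of its cells, each defined by at least 4 of 6 genes. The Hhip-Ednrb gate (999 cells) used the 6 genes named above, the pericyte gate (1183 cells) used Cspg4, Notch3, Higd1b, Cox4i2, Gucy1a3 and Kcnk3, and the matrix gate (280 cells) used Wnt2, Figf, Col13a1, Adh1, Fgfr4 and Tcf21. A further 558 cells fell in none. The genes of a gate are high in it by construction. Of the 65 members, 30 also met the gene count of the matrix gate and 5 that of the pericyte gate, and these cells were kept as members.

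The gene count was the narrow step of the rule. In the sort 99 cells had at least 3 of the 5 genes, 82 of these reached the summed level, 65 remained after the limit on the Hhip-Ednrb genes, and Upk3b and Epcam removed no more. The 3 members nearest the threshold had summed levels of 514.1, 522.6 and 588.7 CPM. The 3 nearest cells below it had 484.1, 458.4 and 455.8 CPM, and 6 cells in all were kept out by the summed level alone. Members carried 3 of the 5 genes in 41 cells, 4 in 19 and all 5 in 5. Their summed level ran from 514.1 CPM through a median of 1289 to 7912 CPM. Hhip-Ednrb genes were at 0 in 25 members, and 25, 10 and 5 members had 1, 2 and 3 of them.

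No rule gene was present in every member. Agtr2 was found in 80% of members and 3.146% of the rest, with means of 399.9 and 6.629 CPM and a median of 330.5 and a highest value of 1820 CPM among members. Dcn was found in 84.62 and 24.14% of cells, at means of 788.9 and 98.71 CPM. These were the most widely found of the 5 in the members. Penk was seen in 60% of members (mean 199 CPM, against 12.19 CPM in the rest), Dpep1 in 61.54% (136.6 against 7.564 CPM) and Lum in 58.46% (192.4 against 17.96 CPM). A single member supplied 28.3% of the Lum level. The heat map of the 5 genes gives each member's values, with the cells ordered by these same genes.

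**Figure D1:**
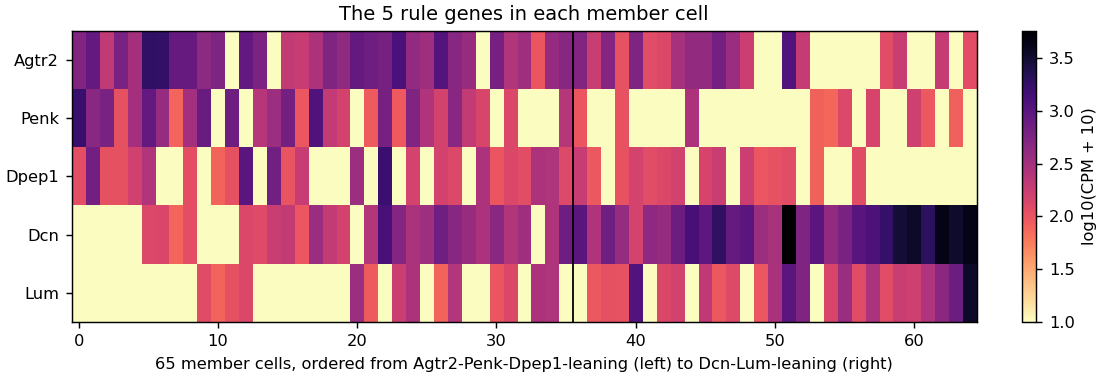
Level of the 5 rule genes (rows) in each of the 65 member cells (columns), as log10 of CPM plus 10. Cells are ordered by their lean, and the vertical line separates the 36 members with more Agtr2, Penk and Dpep1 from the 29 with more Dcn and Lum. Pale squares mark genes with no UMI.

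Because members had fewer UMIs than other cells, shares of cells were also taken after thinning every cell to 5000 UMIs, which left out 31 shallower cells of the rest and no member. Agtr2 was then found in 67.7% of members, 2.01% of the rest, 7.53% of the matrix gate and 0.597% of the pericyte gate. Free RNA gives a gene to cells that do not make it. Sftpc, a surfactant gene of the epithelium that mesenchyme should lack, was found at this depth in 15.4% of members, 14.2% of the rest, 12.4% of the pericyte gate and 15.1% of the matrix gate. It was seen in 26.15 and 31.82% of members and rest before thinning. The share for Sftpc was alike in these groups. Agtr2 helped to choose the members, so its share in them is no evidence of its own.

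The 2 genes of the sort were checked in the members. Acta2, the smooth muscle actin whose reporter was sorted, was found in 100% of members and 98.28% of the rest, but at a mean of 1203 CPM against 3121 CPM. Its level in members ran from 169.6 CPM through a median of 923.9 to 3807 CPM, beside means of 1200 CPM in the matrix gate, 1857 CPM in the pericyte gate and 5472 CPM in the Hhip-Ednrb gate. Members and matrix-gate cells therefore lay together at the low end of the sort for Acta2. Tbx4 had 12 UMIs in all members together (exact Poisson 95% interval 6.201 to 20.96) and was found in 13.85% of them against 38.91% of the rest, or 6.15 against 18.3% after thinning. A single member supplied 40.92% of its level. The lineage reporter marks past use of Tbx4, so its present level does not test the sort.

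Against the rest of the sort, 273 of 6344 genes (4.3%) were at least 2-fold higher in members and 290 (4.57%) at least 2-fold lower, with a median over all genes of −0.064 on the log2 scale. The lower count was 148 without the limit on the Hhip-Ednrb genes, and between 155 and 492 under the other alternatives tried. Of the 15 leading higher genes, Ptn and Ogn had the largest log2 differences. Ptn, encoding the growth factor pleiotrophin, had a mean of 1415 CPM in members and 122.6 CPM in the rest, a log2 difference of 3.43 on 983 UMIs. Its quartiles among members were 261.3, 874.3 and 1831 CPM with a highest value of 8328 CPM, so members differed widely in this gene. Ogn, the proteoglycan osteoglycin, stood at 701.9 and 61.22 CPM, with member quartiles of 272.5, 620.3 and 976.1 CPM, and was found in 92.31% of members against 22.32% of the rest. Ogn was thus present in more members than Ptn, which was found in 84.62%.

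The other leading genes differed in how widely they were spread over the members. S100a6, a calcium-binding protein gene, had 793.2 and 92.82 CPM and was found in 81.54% of members. Fbln5, an elastic fibre organiser, had 481.9 and 85.88 CPM and was also found in 81.54%. Pid1 (226 and 20.08 CPM), Htra3 (a serine protease, 180.2 and 21.52 CPM) and Fam46a (142.2 and 10.08 CPM) were found in 66.15, 72.31 and 60% of members. A second set was found in under 50% of the members. Dpt (dermatopontin, 113.1 and 5.184 CPM) was found in 38.46%, Clec3b (tetranectin, 89.38 and 5.66 CPM) in 46.15% and the potassium channel gene Kcna2 (91.52 and 8.317 CPM) in 47.69%. The transcription factor gene Osr2 (73.91 and 2.975 CPM) and Igfbp2 (111.9 and 11.48 CPM) were each found in 23.08%, and 1 member supplied 29.82% of the Osr2 level. Cxcl14, a chemokine, had 390.4 and 40.14 CPM with a median of 170.9 CPM among members, and 1500015O10Rik had 89.02 and 9.337 CPM.

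**Figure D2:**
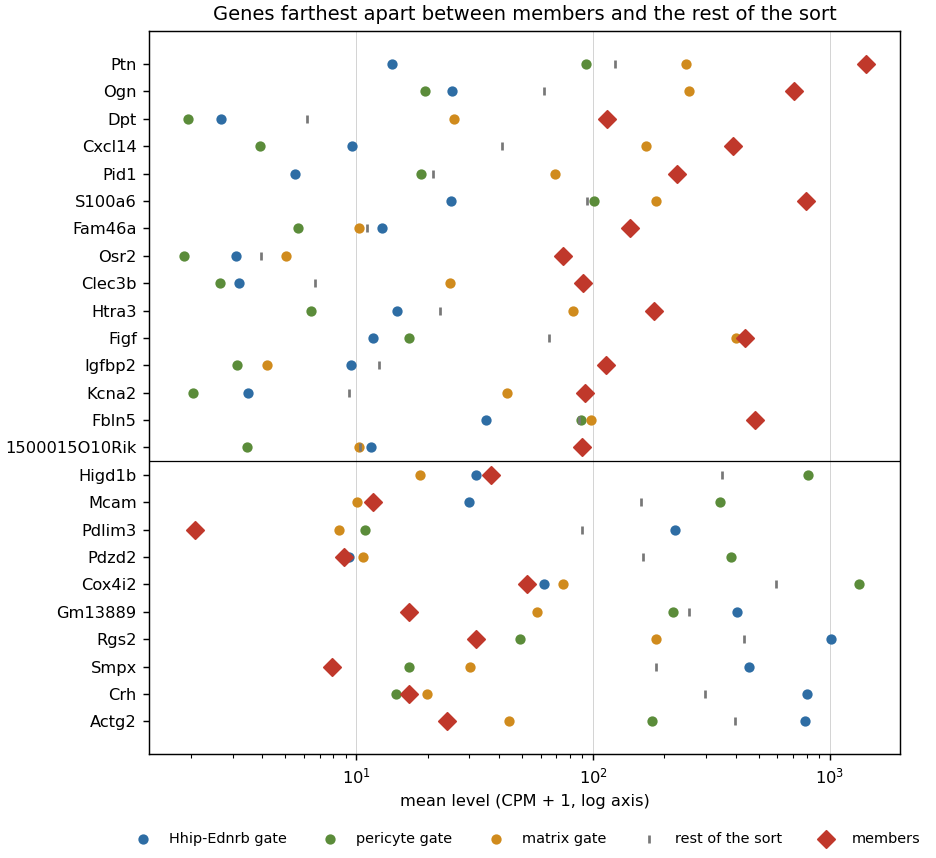
Mean level (CPM plus 1, log axis) of the 15 genes farthest above and the 10 farthest below the rest of the sort, in the 65 members, in the rest and in the 3 gates. Members lie to the right of every gate for the upper genes, with the matrix gate nearest for Figf at 400.6 against 435.5 CPM, and most of the lower genes are high in only the Hhip-Ednrb or the pericyte gate.

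The 10 genes farthest below the rest were high in other groups of the sort. Actg2 (smooth muscle gamma actin) had 23.19 CPM in members and 395.2 CPM in the rest, Crh (corticotropin-releasing hormone) 15.7 and 296.6 CPM, Smpx (a small muscle protein) 6.91 and 183.2 CPM, and Rgs2 (a regulator of G protein signalling) 30.91 and 431.5 CPM. These 4 were highest in the Hhip-Ednrb gate, at 785.4, 802.5, 453.8 and 1011 CPM. Mcam, Higd1b, Cox4i2 and Pdzd2 were highest in the pericyte gate, where Higd1b and Cox4i2 helped to define it, and had 10.71, 36.11, 51.8 and 7.827 CPM in members. Gm13889 had 15.71 against 253 CPM. Pdlim3 had 1 UMI in all members (interval 0.02532 to 5.572), and the pooled ratio of members to rest was 0.02038 with an interval of 0.0005159 to 0.1135.

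Markers of adventitial and universal fibroblasts were mostly higher in the members. Of 17 such genes at 20 CPM or more, 13 were higher and 2 lower, with a median of 1.77 on the log2 scale beside −0.064 over all genes. Beside those already given, Cd34 had 150.5 CPM in members against 29.37 CPM in the rest, Gsn (gelsolin) 801.7 against 155.2 CPM, Mfap5 (a microfibril protein) 96.98 against 15.74 CPM, and Serpinf1 52.68 against 5.985 CPM. Pi16 had 28.18 and 1.169 CPM on 21 UMIs and was found in 12.31% of members. In all, 9 of the genes were at least 2-fold above each of the 3 gates: Pi16, Cd34, Dpt, Mfap5, Clec3b, Serpinf1, Igfbp4, Igfbp6 and Htra3. The name adventitial-like rests on these genes and on the count over the list, while 30 of the 65 members also met the matrix gate's count. Over all genes 83 of 6344 (1.31%) stood so and 20 (0.315%) stood at least 2-fold below all 3.

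Of the 17 markers, 2 were lower. Ccl11 (eotaxin) had 52.66 CPM in members and 198.2 CPM in the rest, with 399.6 CPM in the pericyte gate, and Scara5 had 18.65 and 73.7 CPM, with 193.8 CPM in the Hhip-Ednrb gate. Dpp4, Ly6a, Ly6c1, C3 and Efemp1, which mark universal fibroblasts of adult tissue, had no UMI in any member, which allows up to 4.682 CPM each for 3 UMIs in 640723. Their means in the rest were all under 0.5 CPM, so these genes could not separate members from other cells at this depth. Per cell, the summed level of the 24 markers had a median of 3412 CPM in members, with a range of 393.8 to 8502 CPM. The median was 1109 CPM in the rest and 1507 CPM in the matrix gate, and the highest cell of the rest reached 7229 CPM, so the groups overlapped.

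Markers of alveolar matrix fibroblasts were also higher in the members than in the rest of the sort. Of 10 genes at 20 CPM or more, 7 were higher and none lower, with a median of 1.38 on the log2 scale. Tcf21, a transcription factor of lung fibroblasts, had 818.1 CPM in members, 184.1 CPM in the rest and 709.9 CPM in the matrix gate. Limch1 had 186.1, 40.38 and 250.5 CPM and the microfibril gene Mfap4 5221, 1774 and 7254 CPM in the same groups. Npnt, the integrin ligand nephronectin, was lower in members (131.5 CPM) than in the matrix gate (336 CPM) yet above the rest (51.48 CPM). Wnt2 had 17.32 CPM in members, 27.13 CPM in the rest and 172.3 CPM in the matrix gate that it helped to define. Summed over 14 markers the median per cell was 6686 CPM in members, 9005 CPM in the matrix gate and 998.4 CPM in the rest.

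Smooth muscle markers were low in the members. None of 15 was higher and 13 were lower, with a median of −1.42. Tagln (transgelin) had 139.1 CPM against 1078 CPM in the rest, Myh11 (smooth muscle myosin heavy chain) 22.02 against 135.9 CPM, Cnn1 12.34 against 75.91 CPM and Des (desmin) 36.31 against 164.5 CPM. Synpo2 had no UMI in members and 35.38 CPM in the rest, at least 7.56-fold lower when 3 UMIs are taken as the limit. Of 11 myofibroblast markers none was higher and 7 were lower, among them P2ry14 (8.776 against 120.5 CPM) and Mustn1 (9.718 against 70.94 CPM), while Pdgfra, the platelet-derived growth factor receptor of fibroblasts, had 155.2 and 136.7 CPM and Tnc 35.11 and 25.34 CPM. Of 13 pericyte markers none was higher and 11 were lower, such as Gucy1b3 (19.48 against 185.7 CPM), Ebf1 (65.54 against 356.7 CPM) and Kcnj8 (13.38 against 115.4 CPM). The limit on the Hhip-Ednrb genes chose against cells of that group, which is highest for the first 2 of these lists. Summed per cell, the smooth muscle and pericyte lists had medians of 2866 and 358 CPM in members, close to 2947 and 352 CPM in the matrix gate, and the myofibroblast list 422.5 CPM, above the 223.3 CPM of the matrix gate.

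**Figure D3:**
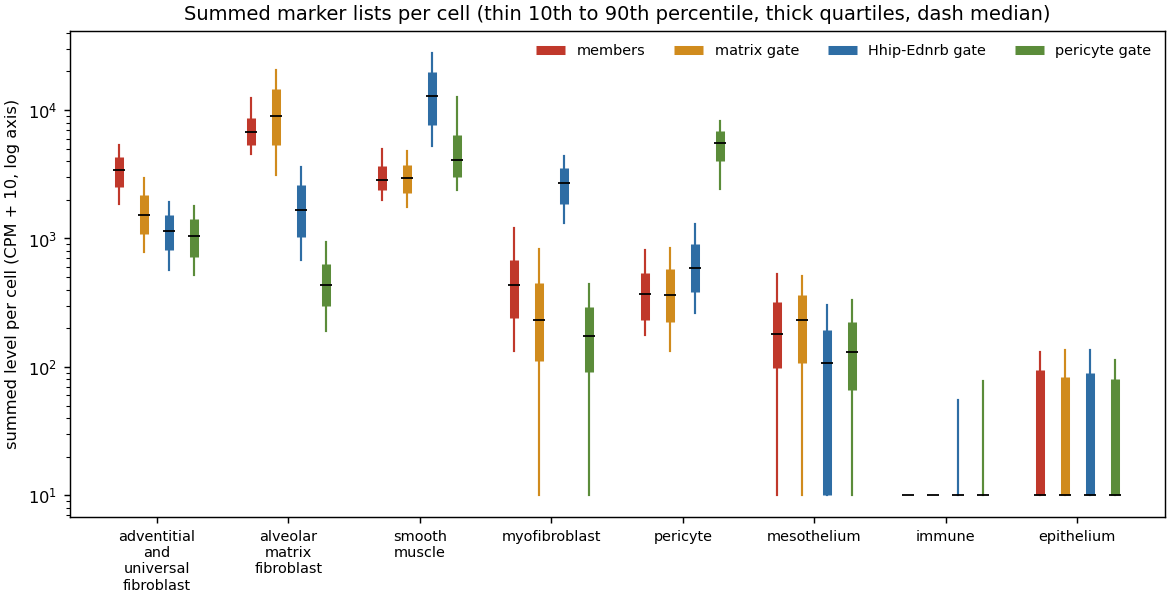
Summed level per cell (CPM plus 10, log axis) of 8 marker lists in members, matrix gate, Hhip-Ednrb gate and pericyte gate, with the median (dash), quartiles (thick) and 10th to 90th percentiles (thin). Members have the highest median for the adventitial list only, and lie beside the matrix gate for the smooth muscle and pericyte lists. The matrix and pericyte lists hold genes that define the gates of that name.

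Defining genes of other cell types were often at 0 in the members, but some genes of those lists were not. Among immune markers 8 of 10 had no UMI in any member, Ptprc included, and none reached 20 CPM. Of the 14 mesothelial markers 10 had none, Msln and Wt1 included, and of the 2 at 20 CPM or more Rspo1 was higher (64.64 against 9.33 CPM), a gene also found in the matrix gate at 41.54 CPM. The other, Nkain4, had 163 and 136.1 CPM, and the summed mesothelial level had a median of 170.9 CPM in members and 119.6 CPM in the rest. Of the epithelial markers 6 of 10 were at 0, Cdh1 and Nkx2-1 included, and both genes at 20 CPM or more, Sftpc and Scgb3a2, were lower in the members by mean. That call ended and the sign turned when cells with UMIs of other types were left out of the rest (log2 differences of 0.035 and 0.032) or when the 3 gates were used (0.027 and 0.033). The summed epithelial level had a median of 0 CPM in both groups, and the highest cell of the rest reached 52570 CPM. The endothelial genes Cdh5, Tie1, Emcn and Esam were at 0, and of 3 genes at 20 CPM or more 1 was lower (Esam, 22.92 CPM in the rest). Ramp2 had 138.5 and 85.76 CPM, and the summed endothelial median was 129.5 CPM in members and 111.4 CPM in the rest. Heart muscle had 1 gene of 1 lower (Actc1), the neural crest and Schwann list 1 of 2 (Fabp7, 2 UMIs in members, beside Ednra at 147.4 and 173.7 CPM, with summed medians of 157.3 and 183.7 CPM), and cartilage and perichondrium 1 of 2 (Sox5, 2 UMIs), with Col2a1 and Acan at 0. All 4 red cell genes were lower by mean, for example Hbb-bs at 55.86 against 944 CPM. Their summed level per cell, however, had a median of 108.5 CPM in members and 76.47 CPM in the rest, where the highest cell reached 969200 CPM. Leaving cells with endothelial, immune, epithelial or mesothelial UMIs out of the rest gave 267 higher and 282 lower genes. The part of red cell RNA in these counts was not tested.

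As a group, structural matrix genes were higher in the members than in the rest of the sort. Of 14 fibrillar and associated collagen genes 11 were higher and none lower, with a median of 1.31. Of these 11, only Col5a1 and Col26a1 were at least 2-fold above each of the 3 gates. Col1a1 had 2786 CPM in members against 766.2 CPM in the rest and 1635 CPM in the matrix gate, with member quartiles of 1408, 2268 and 3742 CPM. Col1a2 had 2153 and 935.8 CPM and Col3a1 1827 and 809.6 CPM, with 1207 and 1249 CPM in the matrix gate, within 2-fold of the members. Col26a1 (85.48 and 12.29 CPM), Col14a1 (153.6 and 42.82 CPM) and Col16a1 (85.13 and 24.79 CPM) were also higher. The collagen chains of basement membranes went the other way: Col4a1 had 156.1 against 434.1 CPM and Col4a2 85.44 against 200.3 CPM, and of 9 basement membrane genes none was higher and these 2 were lower. Low Col4a1 and Col4a2 levels were shared with the matrix gate, at 144.7 and 59.23 CPM.

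Elastic fibre genes followed the fibrillar collagens. Of 17, 9 were higher and none lower, with a median of 1.03. Of the 9, only Fbln2, Fbln5, Mfap5, Ltbp4 and Loxl1 were at least 2-fold above each of the 3 gates. Eln (elastin) had 4096 CPM in members and 2002 CPM in the rest, the cross-linking enzyme genes Lox and Loxl1 had 693.1 against 252.2 CPM and 278.4 against 67.66 CPM, and Fbln2 had 42.95 against 6.077 CPM. Loxl2 had 101.3 and 75.98 CPM and was not among the 9 higher genes. Of 5 small leucine-rich proteoglycan genes outside the rule, 2 were higher (Ogn and Aspn, asporin, at 449.3 against 160.6 CPM) and 1 lower (Fmod, fibromodulin, at 23.42 against 85.66 CPM). Among 13 matricellular genes Sparc (4672 and 2166 CPM), Cyr61 (814.6 and 312.4 CPM) and Cthrc1 (41.95 and 12.48 CPM) were higher and Postn (periostin) lower at 39.66 against 169.9 CPM. Of 17 genes for matrix proteases and their inhibitors 3 were higher and none lower. Pcolce, which enhances procollagen processing, had 660.6 and 201.7 CPM, and Adamts2, which trims procollagen, 137.1 and 49.01 CPM. Adamts9 had 38.14 and 13.99 CPM, but 43.44 CPM in the matrix gate.

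Few genes of the lists linked to Agtr2, Penk and Dpep1 reached 20 CPM. Agt, the angiotensin precursor gene, was counted against membership. Its level in members (2.638 against 20.2 CPM in the rest) was therefore partly set by the rule. Of 3 genes of the angiotensin and kinin system at 20 CPM or more, none was higher and Agtr1a, the type 1 angiotensin receptor, was lower with 1 UMI in members (1.482 against 37.54 CPM). Its level was 3.431 CPM in the Hhip-Ednrb gate, 3.877 CPM in the matrix gate and 84.81 CPM in the pericyte gate, so only the pericyte gate stood high. Of 12 genes of opioid peptides, receptors and processing, 8 were present in the data of the sort, and none of these reached 20 CPM in either group. Cpe, which trims peptide precursors, had 12.16 and 8.451 CPM and Mme, which degrades enkephalins, 12.31 and 2.357 CPM. Of 4 leukotriene, prostaglandin and glutathione peptidase genes Ptgis, the prostacyclin synthase, was higher at 77.14 against 15.62 CPM, and none was lower.

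Insulin-like growth factor (IGF) genes gave 8 higher and 1 lower of 12, with a median of 1.32. Binding proteins of the family made up 6 of the 8: beside Igfbp2, Igfbp4 had 974 against 273.2 CPM, Igfbp7 734.7 against 146.2 CPM, Igfbp5 181.4 against 74.39 CPM, Igfbp3 52.53 against 8.549 CPM and Igfbp6 25.41 against 1.47 CPM. Dlk1, placed on this list, had 4425 and 1611 CPM, with 2785 CPM in the pericyte gate. Of the ligands Igf2 was higher at 271.9 against 130.5 CPM and Igf1 lower at 246.6 against 594.5 CPM. Igf1 in members nonetheless lay above the matrix gate (148.3 CPM) and the pericyte gate (31.66 CPM), and only the Hhip-Ednrb gate was higher, at 1414 CPM.

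Wnt pathway genes split, with 3 higher and 3 lower of 14. The R-spondins, secreted enhancers of Wnt signals, were higher: Rspo1 as given and Rspo3 at 33.06 against 6.277 CPM. The secreted inhibitor Sfrp1 was higher too, at 95.98 against 17.65 CPM. Wnt5a was lower at 33.89 against 78.07 CPM, and Lef1 and Lgr6 had 1 UMI each in the members. Of 8 hedgehog pathway genes the co-receptor Gas1 was higher (137.6 and 56.7 CPM) and the target transcription factors Foxf1 (71.74 and 273.9 CPM) and Foxf2 (25.77 and 112.3 CPM) lower. Notch pathway genes gave none higher and 3 lower of 6: Notch2 (20.82 and 68.45 CPM), Heyl (42.55 and 115 CPM) and Nrarp. Nrarp, a Notch target, had no UMI in members and 54.23 CPM in the rest, at least 11.6-fold lower when 3 UMIs are taken as the limit. After thinning it was found in 39.8% of the pericyte gate, 1.61% of the Hhip-Ednrb gate and 0.717% of the matrix gate. The summed Notch list had a median per cell of 185.6 CPM in members, 183.8 CPM in the matrix gate and 163 CPM in the Hhip-Ednrb gate. Only the pericyte gate stood high, at 783 CPM.

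Of 18 BMP and TGF-beta genes 3 were higher. The ligands Bmp4 (172.8 and 69.77 CPM), Tgfb3 (92.69 and 40.85 CPM) and Inhba (24.01 and 6.278 CPM) were higher. The secreted BMP inhibitor Nog had no UMI in members and 26.08 CPM in the rest, at least 5.57-fold lower when 3 UMIs are taken as the limit. Of 8 FGF pathway genes Fgf10, which guides the branching epithelium, and Fgf2 were higher, at 63.65 against 9.042 CPM and 29.38 against 4.846 CPM. The matrix gate had Fgf10 at 69.43 CPM, so this gene did not set members apart from it. The PDGF, VEGF and angiopoietin list gave 2 higher of 9 (Figf, and Angpt1 at 60.24 against 17.84 CPM) and 1 lower (Pdgfrb at 76.95 against 205.7 CPM). Of 6 retinoid genes the binding protein gene Crabp1 (50.73 and 4.721 CPM) and Rbp4 (31.23 and 8.847 CPM) were higher.

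Among 9 chemokine and complement genes 4 were higher and 3 lower. The chemokine-scavenging receptor Ackr3 had 24.78 against 1.919 CPM, Serping1 (the C1 inhibitor) 320.2 against 78.65 CPM and Cd55 51.99 against 15.58 CPM, while Ccl2 had 6.967 against 100.5 CPM and Cxcr4 2.59 against 26.29 CPM. Of 12 axon guidance and neurotrophin genes 5 were higher and 2 lower. The semaphorins were not alike: Sema3d (38.24 and 2.268 CPM), Sema3a (29.58 and 5.337 CPM) and Sema5a (69.01 and 25.69 CPM) were higher and Sema3c lower with 3 UMIs in members against 42.68 CPM. Slit3 (80.45 and 19.99 CPM) and the netrin receptor gene Unc5c (108 and 23.05 CPM) completed the higher genes and Nrtn (8.125 and 52.8 CPM) the lower. Of the 5 higher genes only Sema3d was at least 2-fold above every gate. After thinning, Unc5c was found in 38.5% of members and 39.4% of matrix-gate cells.

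Mesenchymal transcription factors gave 8 higher and 7 lower of 35. Twist2 had 150.1 CPM in members against 31.32 CPM, Prrx1 132.3 against 33.71 CPM, Osr1 126.4 against 38.55 CPM, Meox2 127.9 against 42.15 CPM, Klf4 113.7 against 17.6 CPM and Gata6 50.23 against 19.98 CPM. Twist2, Prrx1, Klf4 and Osr2 were also at least 2-fold above each of the 3 gates. Lower factors included Tbx3 (29.12 against 101.5 CPM), Tbx5 (66 against 164.7 CPM), Mef2c (56.68 against 177.7 CPM) and Ebf1. The positional factors were closer: Hoxa5 had 147.3 and 139.8 CPM and Hoxb5 103.3 and 153.2 CPM.

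Of 18 G2 and M phase genes none was higher and 4 were lower: Ube2c (64.4 and 176.1 CPM), Ccnb1 (25.9 and 63.96 CPM), Ccnb2 (51.29 and 127.2 CPM) and Cks2 (95.78 and 225.9 CPM). After thinning, 18.5% of members (12 of 65, exact interval 9.92 to 30.03%) had at least 3 of 20 such genes, beside 34.7% of the rest, 22.8% of the Hhip-Ednrb gate, 46.3% of the pericyte gate and 32.3% of the matrix gate. Without thinning the shares were 27.7 and 54.2% for members and rest. No S phase gene of 17 was 2-fold apart, and 47.7% of members and 57.6% of the rest had at least 3 of 20 after thinning. Of 17 immediate early and stress genes, which respond to tissue digestion among other things, only the flow-responsive Klf2 was 2-fold apart, at 210.5 CPM in members and 71.03 CPM in the rest.

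The matrix gate was the nearest of the 3 in number of genes apart. This was partly set by the choice of cells, as 30 members also met its gene count and 5 that of the pericyte gate. The rule also kept out cells with many Hhip-Ednrb genes. Against the matrix gate 157 of 6218 genes (2.52%) were higher in members and 92 (1.48%) lower. Against the Hhip-Ednrb gate 326 (5.04%) were higher and 410 (6.33%) lower, and against the pericyte gate 499 (7.91%) and 354 (5.61%). The genes named next were chosen after their values were seen, as those farthest apart with at least 50 CPM in the higher group. Members had more Fam46a (142.2 against 9.255 CPM), Prss35 (a protease-like gene, 276.4 against 38 CPM), Igfbp7 (734.7 against 121 CPM), Ptn (1415 against 245 CPM), Klf2 (210.5 against 30.66 CPM) and Tm4sf1 (98.83 against 10.89 CPM). Matrix-gate cells had more Cebpb (626.4 against 136.1 CPM), a transcription factor gene, Gyg (glycogenin, 1600 against 505.6 CPM), Car2 (356.4 against 113.1 CPM), Fam213a (220 against 58.76 CPM), Rgs2 (182.9 against 30.91 CPM) and Hsd11b1, which activates glucocorticoids (73.41 against 15.24 CPM).

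Distances between cells were taken from 2000 variable genes and 30 principal components, with the rule genes left out. Among each member's 15 nearest cells, 32.0% were members, 23.3% matrix-gate cells and 38.9% cells in no gate, where members made up 1.18% of the neighbours of the rest. Of the members, 5 had no member among their neighbours and 17 had at least 8. Members thus had other members near them more often than the rest did, but most of their neighbours were other cells.

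Members varied in which rule genes they carried. By the larger sum, 36 leaned to Agtr2, Penk and Dpep1 and 29 to Dcn and Lum, and 22 lay within 2-fold of the line between them. In all, 5 had no Dcn or Lum UMI, 17 had all of Agtr2, Penk and Dpep1, and 33 had both Dcn and Lum. Members leaning to Agtr2, Penk and Dpep1 had 40.6% members among their neighbours and those leaning to Dcn and Lum 21.4%, with 15.7 and 32.6% matrix-gate cells. The scatter of the 2 sums shows a continuous spread among the members. This spread is partly set by the rule, which asks for 3 of the 5 genes. A cell with only Dcn and Lum could not be a member, so the scatter cannot show whether such cells lie apart.

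**Figure D4:**
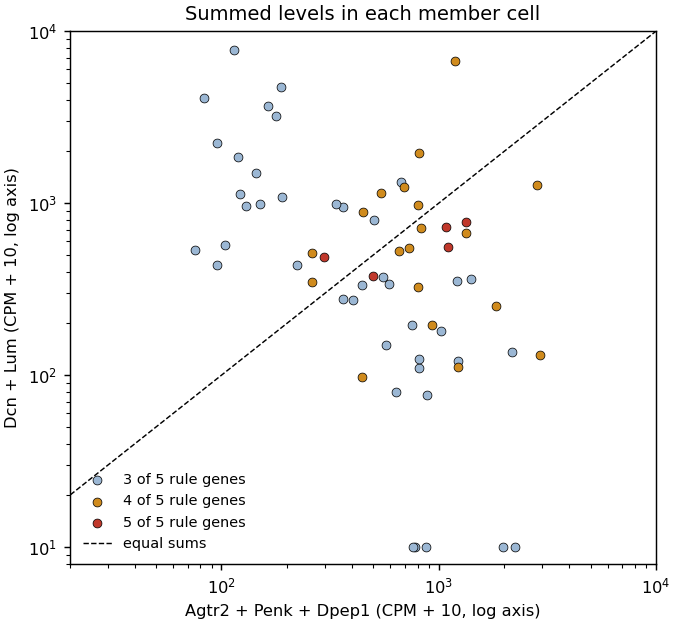
Summed level of Dcn and Lum against that of Agtr2, Penk and Dpep1 in each of the 65 members (CPM plus 10, both axes log), coloured by the number of rule genes found, with the line of equal sums. 36 members lie below the line and 29 above it, and the 5 cells along the bottom have no Dcn or Lum UMI.

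Between the 2 leanings, 6386 genes outside the rule were compared. Of these, 240 (3.76%) were at least 2-fold higher in the members leaning to Agtr2, Penk and Dpep1 and 361 (5.65%) lower. The Agtr2, Penk and Dpep1 side and the Dcn and Lum side held 339441 and 301282 UMIs. How many genes counting error alone would set 2-fold apart was not estimated. The genes named here were again chosen after their values were seen. Igfbp2 had 197.8 CPM in the former and 5.281 CPM in the latter, where 1 UMI was found in 29 cells, and Igfbp3 had 93.03 and 2.263 CPM. Both lay in 38.9 and 3.45% of cells. Cxcl14 had 582 and 152.5 CPM and was found in 91.7 and 27.6% of cells, Osr2 had 117.5 and 19.74 CPM, Crabp1 83.26 and 10.35 CPM and the transporter gene Abca8a 73.26 and 3.888 CPM. Igfbp2, Cxcl14 and Osr2, which led the list for all members, thus came mainly from the Agtr2, Penk and Dpep1 side.

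Members leaning to Dcn and Lum had more Sfrp1, at 202.5 against 10.14 CPM and in 55.2 against 5.56% of cells. They also had more Lpl (lipoprotein lipase, 86.3 against 3.895 CPM), Bambi (a decoy receptor for TGF-beta signals, 228.4 against 60.27 CPM), Epha3 (102.4 against 23.38 CPM) and Fmo2 (137.6 against 13.67 CPM). The cell cycle genes Tpx2 (73.62 against 3.882 CPM), Dtl (84.98 against 10.79 CPM) and Spc24 (103.2 against 17.33 CPM) were higher as well. The share with at least 3 G2 and M genes after thinning was 24.1% (exact interval 10.3 to 43.54%) against 13.9% (4.668 to 29.5%), intervals that overlap. Fam46a and Kcna2 did not follow the split, at 136.1 and 149.7 CPM and 83.92 and 100.9 CPM. Ptn was higher on the Dcn and Lum side, at 1968 against 970.4 CPM.

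The same rule was applied to the 3 E17.5 lungs. Their cells were not among the members described above, but the rule itself was chosen with earlier results of these data known. It found 21 of 2682 cells (0.783%), 35 of 2140 (1.636%) and 25 of 2657 (0.9409%), a mean of 1.12% ± 0.4538 (SD, n = 3 lungs). The lungs hold all live cells and the sort only reporter-positive mesenchyme, so the denominators differ and no direction is drawn from the shares. Most cells found leaned to Agtr2, Penk and Dpep1 in every lung: 16 of 21, 27 of 35 and 20 of 25. The cells found held 142866, 302920 and 148562 UMIs in all, fewer than the 640723 of the E16.5 members, so low genes are less certain there.

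For the leading genes the lungs gave the same order of levels. Cells meeting the rule were compared with the mean of the 3 gates in the same lung, and Figf, Higd1b and Cox4i2 were left out as gate genes. Of the other 14 leading higher genes all were higher in every lung and 13 at least 2-fold, with Kcna2 at 2-fold in 2 of 3. The 8 remaining lower genes were at least 2-fold lower in every lung. Most of the lower genes were high in the Hhip-Ednrb or pericyte gate of the sort. Both gates enter the mean used here and the rule limits Hhip-Ednrb genes, so this direction was partly set by the comparison. In the lungs 7.85, 5.24 and 8.24% of all genes were 2-fold higher and 11.2, 6.34 and 12.2% lower, and in the E16.5 sort by the same measure 3.47 and 3.64%.

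Values in single lungs show how far this went. Igfbp2 had 535, 703.1 and 904.8 CPM in lungs 1, 2 and 3 against 5.023, 10.23 and 6.271 CPM in the gates, a log2 difference of 5.38 ± 0.377 (SD, n = 3), beside 111.9 and 4.608 CPM in the E16.5 sort. Cxcl14 had 314.9, 431.4 and 438.7 CPM against gates of 25.18 to 26.44 CPM, and Ogn 792.3, 801.8 and 1014 CPM against 101.4 to 108 CPM. In all 3 lungs the members' level of these genes, which were picked from the leading higher genes, was above the gates. Osr2 had 141.1, 225.2 and 283 CPM against gates under 4 CPM, and Clec3b 347.7, 364.1 and 398.4 CPM against 52.91 to 57.06 CPM. Ptn had 493.7, 459.4 and 815.9 CPM against 21.35 to 44.38 CPM.

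Genes named from the lists were compared in the same way. Of 35 that were higher in the E16.5 members than in the rest and defined no gate, 20 were at least 2-fold above the gates in every lung, 8 in some and 7 in none (Adamts9, Angpt1, Klf2, Klf4, Limch1, Rbp4 and Unc5c). Against the gates, Adamts9 and Rbp4 were under 2-fold in the E16.5 sort too, at log2 differences of 0.64 and 0.796. Limch1 had log2 differences of 0.36, −0.25 and −0.68 in lungs 1, 2 and 3. Klf2 stood higher in all 3 lungs by less than 2-fold, at 1261, 1222 and 1433 CPM against 785.1, 756.3 and 883.2 CPM. Klf4 had 113.7 CPM in E16.5 members against 18.02 CPM in the gates, but 876.6 ± 131.5 CPM against 710.5 ± 89.62 CPM (SD, n = 3) in the lungs, with log2 differences of 0.24, −0.06 and 0.71. Acta2 was lower in the cells meeting the rule in every lung, at 475.6, 516.3 and 264.9 CPM against 1402, 1413 and 1821 CPM in the gates, as in the sort at 1203 against 2843 CPM. Actg2 had 0, 15.22 and 4.439 CPM against 170.5, 138.6 and 186.8 CPM.

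**Figure D5:**
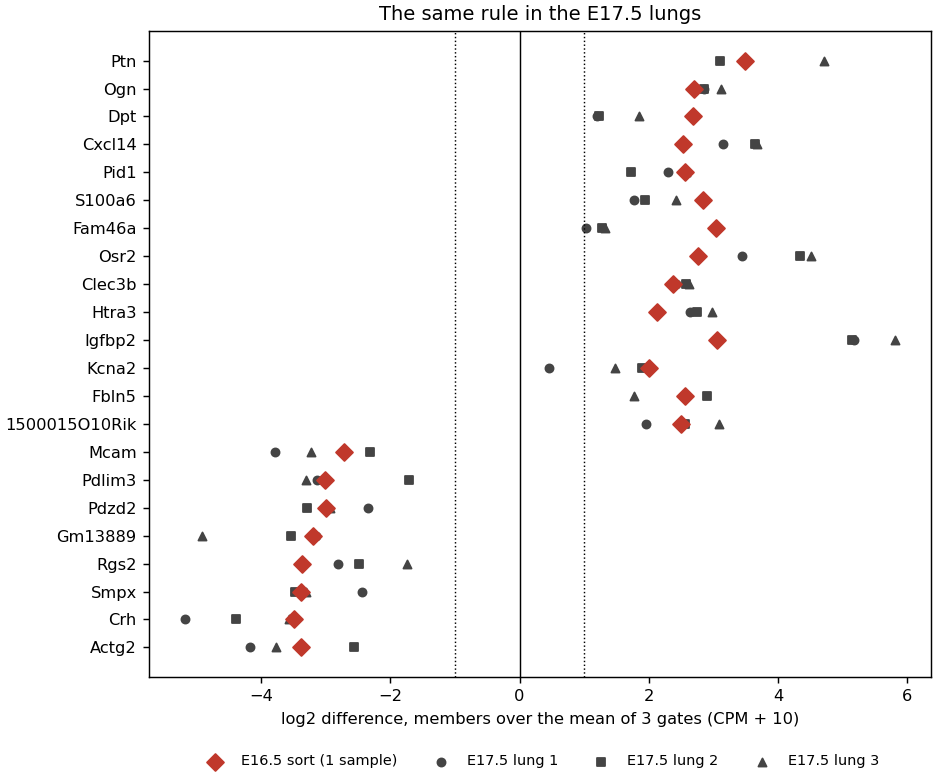
Log2 difference between cells meeting the rule and the mean of the 3 gates (CPM plus 10) for the leading genes, in the E16.5 sort (diamond) and in each E17.5 lung, with dotted lines at 2-fold. Upper genes lie to the right of 0 and lower genes to the left in every sample, and only Kcna2 in lung 1 lies within 2-fold.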

How the data were processed

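Single-cell RNA sequencing of 1 sorted E16.5 lung and 3 E17.5 lungs was used. The deposited values are a signal: normalized expression on a linear scale, genes by cells. Cell Ranger 1.3.1 and Seurat 3.0.0 are named in the submitters' processing notes, without a role. Genome build: not given in the sources used here. In each file every cell sums to the sample's median UMI total and every value is a whole multiple of the cell's smallest (100%, tolerance 0.01), so UMIs were recovered and CPM computed per cell. Sorting into lysis plates is named in the labels' protocol, whereas barcodes and Cell Ranger belong to droplets, so droplets are an inference.

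The members, the 36 gene lists and the comparison gates were chosen with earlier results of these data known. Named genes are the 15 farthest above and the 10 farthest below the rest (symbols with more than 1 row and ribosomal, mitochondrial and haemoglobin genes left out), up to 4 per list, the rule genes, Acta2 and Tbx4; other genes of the lists are given as examples, and exceptions are marked. Gates hold no Upk3b or Epcam UMI and no member; 33 cells meeting both the pericyte and matrix counts were put in neither. Members were not tested; exact 95% intervals cover counting error only. Called doublets (scrublet in scanpy 1.11.5, expected rate 5%) stayed in, except in an alternative without them. On simulated data 99% of 4-fold genes were found and 5 of 5928 unchanged genes were 2-fold apart. Only genes of at least 50 CPM over all cells of the sort were changed, so the 99% does not cover lower genes. The simulated cells of a group shared a single profile and differed by counting error only. These rates therefore do not cover genes that vary from cell to cell among the members. Thinning used 5000 UMIs. Other tools were pandas 2.3.3, scikit-learn 1.9.0, matplotlib 3.10.9, scipy 1.17.1 and numpy 2.4.6 in Python 3.11.15. Alternatives changed the pseudocount (10 CPM), the minimum level (20 CPM), pooling, centring, the cells compared and the rule's thresholds. The count of lower genes of the BMP and TGF-beta list is not reported here.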

Additional observations from a re-analysis of the deposited data

How the results depend on the processing

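The number of genes higher in members (273) stayed within 1.5 times under every alternative run, between 193 and 392. The number lower (290) was 468 with a pseudocount of 1 CPM, 155 with a minimum of 50 CPM, 481 with 4 or more of the 5 genes required, 148 with no limit on the Hhip-Ednrb genes, and 492 with the members leaning to Agtr2, Penk and Dpep1 alone. The rule gave 42 members at a summed level of 1000 CPM, 24 with 4 or more genes and 60 to 82 under the other alternatives of its thresholds. Leaving out the member highest for each gene gave 210 higher and 415 lower genes; that step lowers every mean by construction. Among the members leaning to Dcn and Lum alone Igfbp2 and Igfbp3 were lower than in the rest, at −0.49 and −0.60 on the log2 scale, and among those leaning the other way Sfrp1 was, at −0.46. Against the mean of the 3 gates Hba-a1 and Hba-a2 turned to 0.082 and 0.752, and Scgb3a2 and Sftpc to 0.033 and 0.027. With cells holding UMIs of other types left out of the rest, Scgb3a2 and Sftpc were at 0.032 and 0.035. The cause was not tested. The E17.5 mean share was 0.8619 to 1.288% when each lung was left out in turn. The alternatives on the leanings, on the matrix gate and on the highest member were chosen after seeing the data. No paired analysis was possible because the E16.5 group has 1 sample, so it shares fewer than 2 replicate numbers with the E17.5 group. Within the E17.5 lungs, differences were taken inside each lung. With 640723 UMIs in all members, genes under 4.682 CPM could not be told from 0.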

Other observations

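Imprinted genes, which are expressed from the copy of 1 parent, were looked at after their values were seen, and the list was not fixed by any rule. Several growth-related ones stood higher in the members than in the rest of the sort. Cdkn1c, an inhibitor of the cell cycle, had 2312 CPM against 620.9 CPM and was found in 96.92 and 96.13% of cells, so its level and not its presence differed. Meg3, a long noncoding RNA, had 5630 against 1955 CPM and its neighbour Dlk1, a membrane protein related to Notch ligands, 4425 against 1611 CPM. Plagl1 had 483.7 against 176.9 CPM and Peg3 343.7 against 160.5 CPM. Cdkn1c, Meg3 and Plagl1 were at least 2-fold above each of the 3 gates. Dlk1 had 2785 CPM in the pericyte gate and Peg3 217.9 CPM in the matrix gate, both within 2-fold of the members.

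Other imprinted genes did not share this. H19 had 1349 and 1192 CPM, Grb10 486.9 and 401.5 CPM, Igf2r 100.7 and 113.9 CPM, Mest 606.7 and 710 CPM and Ndn 229 and 195.1 CPM, and Nnat was lower in members at 165.7 against 907.2 CPM. Outside this group, Mgp, the matrix Gla protein that limits calcification, had 4268 CPM in members and 1334 CPM in the rest.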
